A study of Mus musculus with 32 samples.

Results

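Wide peaks of open chromatin that were called in Kupffer cells and had no endothelial counterpart are described here. Accessible DNA was tagged with a transposase (ATAC-seq) in Kupffer cells and endothelial cells isolated from the livers of male C57BL/6J mice on normal chow. The labels give 32 libraries in 8 groups of 4, with 16 libraries per cell type: WT mice and REV-ERB a/b double knockout mice, each sampled at ZT10 and ZT22 (Zeitgeber time, in hours after lights on). The series' design text places the double knockout in adult hepatocytes, so neither sorted cell type is the one targeted. The sources used here give neither the way the deletion was made, nor the age of the mice, nor whether cells of several animals were pooled. The deposited files are 2 peak lists, 1 for each cell type. The lists are not split by genotype, time or library, and are taken here to cover all of these together. They hold positions alone, so the read depth behind a peak is unknown, no value below has a replicate, and neither the effect of the knockout nor that of the time of day was analysed here.

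The members were chosen by measured values: a Kupffer peak on chromosomes 1 to 19 was taken where it was wider than 300 bp and overlapped no endothelial peak by even 1 bp. This gave 2627 peaks, out of 134654 Kupffer peaks on those chromosomes and 137684 in the whole list. They are called wide Kupffer-only peaks below. The remaining 79315 Kupffer-only peaks on these chromosomes were 300 bp wide or less and are called narrower. Kupffer peaks wider than 300 bp that met an endothelial peak numbered 4302 (wide shared peaks), and the matching class of the other list, wide endothelial-only peaks, numbered 2348. Absence from a list means only that the authors called no peak there; the DNA may still be accessible in that cell type.

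Kupffer cells are the resident macrophages of the liver. They line the sinusoids beside the endothelial cells, clear bacteria, dying cells and old erythrocytes from the portal blood, and recycle heme iron. Their regulatory DNA is opened by macrophage lineage factors such as PU.1, with the liver receptor LXRα and factors of the MAF and IRF families acting on it. Endothelial enhancers depend on factors such as ERG, and on GATA4 in the liver sinusoid. A nucleosome-free peak marks DNA from which nucleosomes are displaced, as at promoters and active enhancers, and a wide one covers more such DNA than a single short factor site. The REV-ERBs are nuclear receptors that bind heme and repress transcription as part of the circadian clock. No gene, promoter or motif was assigned to a peak, because the peaks are on mm9 and the gene and promoter tables at hand are on GRCm38. For the same reason the cell type of the lists was not checked against marker genes. Positions are given on mm9, counted from 1.

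Being wide and being called in Kupffer cells alone were not common together. Of the 6929 Kupffer peaks wider than 300 bp, 2627 or 37.9% had no endothelial counterpart (95% exact binomial interval 36.8% to 39.1%), beside 60.9% of all Kupffer peaks on the same chromosomes and 62.1% of those of 300 bp or less (61.8% to 62.4%). Width and overlap are what the members were chosen by, so these shares describe the choice and are not tested. All intervals here treat peaks as independent and cover counting error only; they say nothing about differences between mice. In endothelial cells 32.2% of wide peaks had no Kupffer counterpart (31.1% to 33.3%), beside 42.6% of those of 300 bp or less (42.2% to 42.9%). The gap between wide and narrower peaks was thus larger in the Kupffer list, and in both lists most wide peaks were called in both cell types.

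The Kupffer-only share was highest at 152 to 200 bp and fell in the wider classes. It was 64.0% in peaks up to 151 bp (63.5% to 64.5%), 67.8% at 152 to 200 bp (67.3% to 68.3%), 60.1% at 201 to 250 bp (59.7% to 60.6%) and 49.8% at 251 to 300 bp (48.9% to 50.6%). Within the wide range it was 39.97% at 301 to 350 bp (38.3% to 41.6%) and 39.1% at 351 to 400 bp (36.9% to 41.2%), values that did not differ beyond counting error. It was 26.3% at 451 to 500 bp (21.5% to 31.6%) and 21.3% above 500 bp (16.7% to 26.5%). The endothelial list fell earlier: up to 151 bp 53.9% of peaks were endothelial-only (53.3% to 54.4%), at 152 to 200 bp 40.1% (39.3% to 40.9%) and at 201 to 250 bp 34.1% (33.5% to 34.7%). It then changed little up to 350 bp, with 33.5% at 251 to 300 bp (32.7% to 34.4%) and 34.7% at 301 to 350 bp (33.2% to 36.2%), and above 500 bp it was 15.4% (11.6% to 19.9%). From 351 to 400 bp the Kupffer share was still above the endothelial 31.3% (29.2% to 33.4%), and from 401 bp upwards the intervals of both cell types overlapped. Wider intervals are more likely to meet a peak of the other list by position alone, and that part was not tested.

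**Figure D1:**
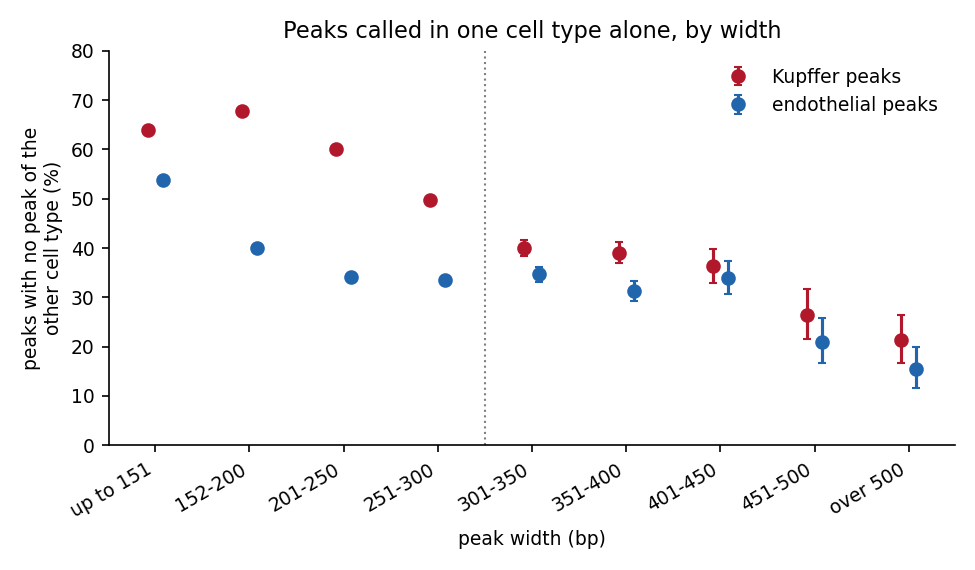
Share of peaks that overlap no peak of the other cell type (y axis, percent) in 9 classes of peak width (x axis, bp), for Kupffer peaks (red) and endothelial peaks (blue); bars are 95% exact binomial intervals and the dotted line marks 300 bp. The Kupffer share is 64.0% up to 151 bp, 67.8% at 152 to 200 bp and 21.3% above 500 bp; the endothelial share is 53.9% up to 151 bp, 34.1% at 201 to 250 bp and 15.4% above 500 bp.

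The wide Kupffer-only peaks were wide by a modest margin. Their median width was 346 bp, the quartiles were 321 and 381 bp, 10% exceeded 421 bp and the widest spanned 697 bp. Widths of 301 to 350 bp accounted for 1408 of them, 351 to 400 bp for 795, 401 to 450 bp for 282, 451 to 500 bp for 80 and wider still for 62. Wide shared Kupffer peaks reached further, with a median of 352 bp and a maximum of 963 bp, and wide endothelial-only peaks had a median of 341 bp and a maximum of 719 bp. The members made up 3.21% of Kupffer-only peaks and covered 942 kb, or 5.77% of the Kupffer-only sequence.

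Gaps to neighbouring peaks were alike on both sides of the threshold. Kupffer-only peaks of 281 to 300 bp numbered 1487 and lay a median of 5210 bp from the nearest endothelial peak and 1264 bp from the nearest other Kupffer peak. Those of 301 to 320 bp numbered 656, at medians of 5191 bp and 1210 bp. The number of Kupffer peaks of any kind did drop between these classes, from 3296 to 1559, and then changed little, with 1391 at 321 to 340 bp. At the threshold itself there were 96 Kupffer peaks of exactly 300 bp and 93 of exactly 301 bp, so no drop fell between these widths. The commonest width in the list is 151 bp, so that 300 bp is close to the span of a pair of such peaks laid end to end; the way in which libraries were merged is not given, and its part in the widths was not tested. The members just inside the threshold, all of 301 bp, were chr1:24467874-24468174, chr1:61059916-61060216, chr1:140023534-140023834, chr1:156917680-156917980 and chr2:156606456-156606756. Just outside it, at 300 bp, were chr1:89708118-89708417, chr1:129032337-129032636, chr1:151793685-151793984, chr1:193065561-193065860 and chr2:6017480-6017779. Gaps to the nearest endothelial peak ran from 748 to 92290 bp in the former and from 194 to 68808 bp in the latter, so both sets held near and far sites.

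Most wide Kupffer-only peaks had an endothelial peak within 10 kb, as did most narrower ones. The gap from edge to edge to the nearest endothelial peak had a median of 5478 bp, with quartiles of 1488 and 13621 bp, beside a median of 4721 bp for narrower Kupffer-only peaks. An endothelial peak lay within 1 kb of 535 members, or 20.4% (18.8% to 22.0%), and of 22.7% of narrower Kupffer-only peaks (22.4% to 23.0%). Within 10 kb the shares were 67.1% (65.2% to 68.9%) and 68.6% (68.3% to 68.9%), which overlap. At 5 kb the members were lower, 47.6% (45.7% to 49.5%) against 51.4% (51.1% to 51.8%). Over all Kupffer peaks, which include those that overlap an endothelial peak, the shares were higher. They were 52.9% within 1 kb, 70.4% within 5 kb and 80.9% within 10 kb. Non-overlap was part of the rule for the members and for narrower Kupffer-only peaks. Their distances therefore describe them and are not evidence of separation.

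A few members missed an endothelial peak by very little. The gap was 50 bp or less in 32 of them (1.22%) and 100 bp or less in 67 (2.55%), beside 1.36% and 2.90% of narrower Kupffer-only peaks; the intervals of both pairs overlapped. The smallest was 2 bp, at chr8:82581691-82581998, which lay beside an endothelial-only peak of 151 bp, and the next was 7 bp, at chr11:64249488-64249796, also beside one of 151 bp; both were singled out after their values were seen. The lists do not tell whether such a site is 1 element whose edges were drawn differently in the cell types. The endothelial peak nearest to a member was itself shared with Kupffer cells in most cases, and was endothelial-only for 809 members or 30.8% (29.0% to 32.6%), beside 30.6% for narrower Kupffer-only peaks. Over all endothelial peaks on these chromosomes 41.7% were endothelial-only (37387 of 89631), so most were shared wherever they lay. A wide endothelial-only peak was the nearest one, within 1 kb, in 8 cases (0.30%, 0.13% to 0.60%), the same share as the 0.30% of narrower Kupffer-only peaks (239 of 79315).

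At the other end, 128 members (4.87%, 4.08% to 5.77%) had no endothelial peak within 50 kb and 41 (1.56%) had none within 100 kb. The corresponding shares of narrower Kupffer-only peaks were 5.91% (5.74% to 6.07%) and 2.32% (2.22% to 2.43%), and those of wide endothelial-only peaks, measured to the Kupffer list, were 8.56% (7.46% to 9.77%) and 4.09% (3.32% to 4.97%). Over all Kupffer peaks, overlapping ones included, the shares beyond 50 kb and 100 kb were 3.58% and 1.40%. The member farthest from any endothelial peak was chr2:16256930-16257349, 420 bp wide and 514202 bp away. Next came chr2:16413047-16413388, on the same stretch of chromosome 2, at 358163 bp. The gap was 357169 bp at chr4:111916695-111917011, 337879 bp at chr1:5498605-5498952 and 246967 bp at chr1:67410384-67410722. Other Kupffer-only peaks stood close to 3 of these 5, at gaps of 599, 338 and 380 bp in the order given for the first 3. The peak at chr1:5498605-5498952 was remote from both lists, with 79363 bp to the nearest other Kupffer peak.

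Wide Kupffer-only peaks seldom stood alone among Kupffer peaks. Another Kupffer peak lay within 1 kb of 1257 of them, or 47.8% (45.9% to 49.8%), beside 44.9% of narrower Kupffer-only peaks (44.6% to 45.3%), 48.2% of all Kupffer peaks and 65.9% of wide shared peaks (64.4% to 67.3%). Wide endothelial-only peaks had another endothelial peak within 1 kb in 33.6% of cases (31.7% to 35.6%), in a list with fewer peaks (89631 against 134654 on these chromosomes). The median gap to the nearest other Kupffer peak was 1165 bp for the members, 1304 bp for narrower Kupffer-only peaks and 404.5 bp for wide shared peaks. Only 63 members (2.40%, 1.85% to 3.06%) had no other Kupffer peak within 20 kb, against 4.71% of narrower Kupffer-only peaks (4.56% to 4.86%). Those farthest from any other Kupffer peak were chr17:11545595-11546058 at 176007 bp, chr9:22766831-22767181 at 138202 bp, chr5:81135740-81136127 at 112274 bp, chr9:67271972-67272401 at 112227 bp and the chromosome 1 peak already named.

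The Kupffer peaks beside them were mostly Kupffer-only as well. The nearest other Kupffer peak was Kupffer-only for 1864 members, or 71.0% (69.2% to 72.7%), beside 66.5% for narrower Kupffer-only peaks (66.2% to 66.8%), 59.3% for all Kupffer peaks and 48.3% for wide shared peaks (46.8% to 49.8%). The share for the members was 71.1% at gaps up to 1 kb and 71.5% at gaps of 1 to 10 kb. At gaps over 10 kb it was 67.1% (139 of 207, 60.3% to 73.5%). For narrower Kupffer-only peaks the values in the same order were 66.3%, 66.8% and 66.3%. On both sides, 1324 members (50.4%, 48.5% to 52.3%) had a Kupffer-only peak as the next one in the list, 1030 had one on 1 side and 273 on neither. Both flanks were Kupffer-only for 45.8% of narrower Kupffer-only peaks (45.4% to 46.1%), 38.9% of all Kupffer peaks and 29.2% of wide shared peaks (27.8% to 30.6%). Among Kupffer-only peaks this share followed width only up to a point. The nearest Kupffer peak was Kupffer-only for 60.4% of those up to 151 bp (59.7% to 61.0%), 67.3% at 152 to 200 bp, 69.7% at 201 to 250 bp, 71.3% at 251 to 300 bp and 70.7% at 301 to 350 bp (68.2% to 73.0%). The members were thus close to Kupffer-only peaks of 201 to 300 bp in this respect, and the lowest value was that of the narrowest class.

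The neighbours of members were wide about as often as those of other Kupffer peaks. The nearest other Kupffer peak was wider than 300 bp for 145 members, or 5.52% (4.68% to 6.46%), the same as the 5.52% around all Kupffer peaks (5.40% to 5.64%) and close to the 5.34% around narrower Kupffer-only peaks (5.18% to 5.50%). Around wide shared peaks it was 6.69% (5.97% to 7.48%). A nearest neighbour that was both wide and Kupffer-only was found for 3.16% of members (2.52% to 3.90%). The share was 2.32% for narrower Kupffer-only peaks (2.21% to 2.42%) and 1.96% for all Kupffer peaks. Members nearest to each other were counted from both sides, so the interval of the members is too narrow. The median width of the nearest other Kupffer peak was 202 bp around members and 200 bp around all Kupffer peaks. In endothelial cells 9.28% of wide endothelial-only peaks had a wide nearest neighbour (8.14% to 10.5%). For 4.77% (3.94% to 5.71%) that neighbour was both wide and endothelial-only. Wide peaks were 8.13% of the endothelial list and 5.15% of the Kupffer list.

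Close pairs of members were few, but so were members, which made up 3.21% of Kupffer-only peaks. Another member lay within 1 kb of 41 members (1.56%) and within 10 kb of 220 (8.37%). Any other Kupffer peak lay that close to 47.8% and 92.1% of members. The number of pairs to be expected from the share of members was not computed. The median gap between nearest members was 127239 bp. The closest pair lay on chromosome 2, chr2:22863923-22864260 and chr2:22864312-22864615, 338 and 304 bp wide with 51 bp between them. A gap of 95 bp separated chr9:40152381-40152688 from chr9:40152784-40153133, and one of 98 bp separated chr11:64249089-64249389 from chr11:64249488-64249796.

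The density of Kupffer peaks around the members was not a smooth function of distance. Counted between centres, there were 0.341 Kupffer peaks per kb at 0.5 to 1 kb, 0.202 at 1 to 2 kb, 0.157 at 2 to 3 kb and 0.137 at 4 to 5 kb. At 5 to 6 kb the density was 0.174 per kb, higher than at 2 to 3 kb, and it then declined slowly to 0.171 at 6 to 10 kb and 0.128 at 50 to 100 kb. The 2627 members had 722 Kupffer neighbours at 4 to 5 kb and 916 at 5 to 6 kb, a ratio of 1.27 (95% exact interval 1.15 to 1.40, neighbours taken as independent). The step was chosen for description after its values were seen. It was present for Kupffer-only neighbours, at a ratio of 1.28 (1.13 to 1.44), and for shared Kupffer neighbours, at 1.25 (1.05 to 1.499). For endothelial peaks around the members the ratio was 1.14 (0.992 to 1.32), and for endothelial-only peaks 0.913 (0.719 to 1.16), and both intervals hold 1.

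The step was also found around other Kupffer peaks. The ratio was 1.14 around narrower Kupffer-only peaks (1.12 to 1.16), 1.31 around wide shared Kupffer peaks (1.21 to 1.42) and 1.17 around all Kupffer peaks (1.15 to 1.18). A pair of peaks inside the same set was counted from both sides. These intervals are therefore too narrow, most of all for all Kupffer peaks. Endothelial neighbours of Kupffer peaks showed the step too: the ratio was 1.09 around narrower Kupffer-only peaks (1.07 to 1.12), 1.27 around wide shared peaks (1.14 to 1.40) and 1.13 around all Kupffer peaks (1.11 to 1.16). For endothelial-only neighbours it was 0.95 around narrower Kupffer-only peaks (0.912 to 0.990), 1.23 around wide shared peaks (1.04 to 1.45) and 1.01 around all Kupffer peaks (0.978 to 1.04). Around wide endothelial-only peaks it was 1.20 for endothelial neighbours (1.06 to 1.35) and 0.966 for Kupffer neighbours (0.855 to 1.09). The interval of the members overlapped those of the narrower and of the wide shared peaks, and that of the wide shared peaks lay above that of the narrower ones. Kupffer-only peaks also differed by width in a broader comparison of the flanks, the Kupffer neighbours at 1 to 5 kb over those at 5 to 9 kb. This ratio was 1.01 at widths up to 151 bp (0.991 to 1.03), 1.06 at 152 to 200 bp (1.04 to 1.07), 0.972 at 201 to 250 bp (0.958 to 0.986), 0.918 at 251 to 300 bp (0.891 to 0.945), 0.968 at 301 to 350 bp (0.907 to 1.03), 0.917 at 351 to 400 bp (0.841 to 1.00) and 0.801 above 400 bp (0.710 to 0.902). It did not fall evenly with width, and Kupffer-only peaks of 201 to 300 bp, which are not members, also had fewer Kupffer peaks at 1 to 5 kb than farther out. The lowest of these 7 ratios was that of the 424 members above 400 bp. Pairs inside a width class were again counted from both sides. Whether the distance of 5 kb comes from the peak calling or from the chromatin was not tested.

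**Figure D2:**
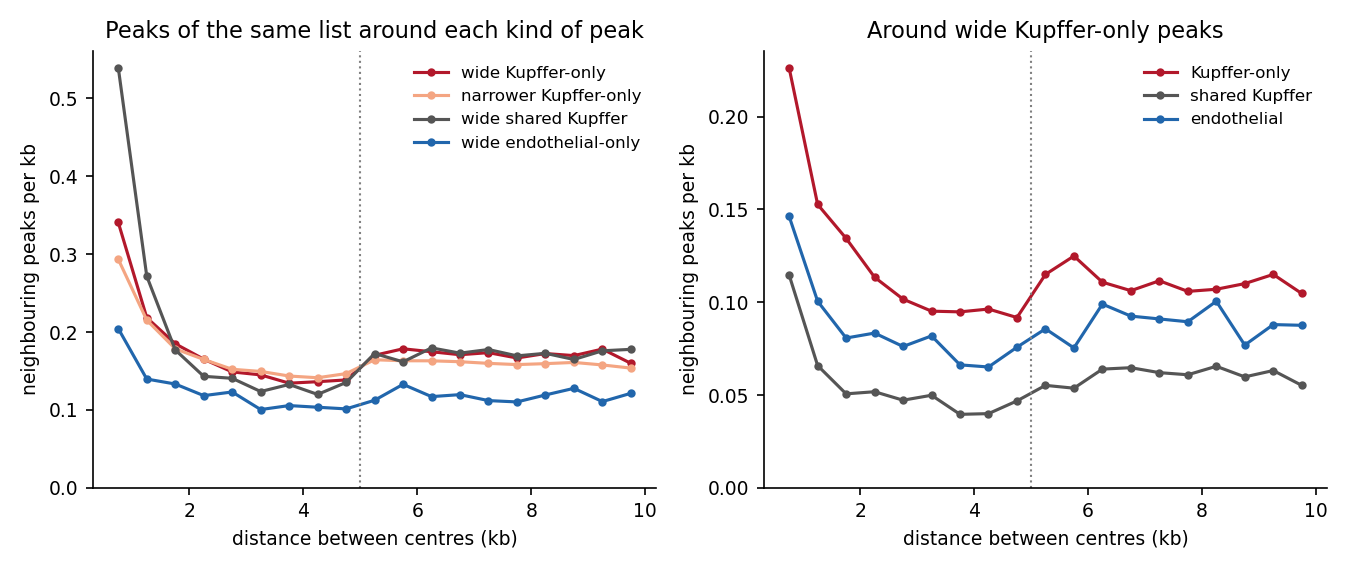
Neighbouring peaks per kb (y axis) by distance between centres in classes of 500 bp from 0.5 to 10 kb (x axis): peaks of the same list around 4 kinds of peak (left), and Kupffer-only, shared Kupffer and endothelial peaks around wide Kupffer-only peaks (right). The dotted line marks 5 kb, where the density of Kupffer peaks around wide Kupffer-only peaks goes from 0.137 per kb at 4 to 5 kb to 0.174 per kb at 5 to 6 kb.

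The 10 widest members mostly had no close Kupffer neighbour. The widest, of 697 bp, was chr4:109237073-109237769. It was followed by chr12:112762838-112763512 with 675 bp, chr4:149422255-149422919 with 665 bp and chr4:59588188-59588844 with 657 bp. Both chr6:57470816-57471442 and chr11:21463704-21464330 spanned 627 bp. The others were chr1:109343875-109344493 with 619 bp, chr17:37108137-37108742 with 606 bp, chr7:133015060-133015656 with 597 bp and chr7:113795171-113795759 with 589 bp. Chromosome 4 held 3 of the 10.

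For 8 of these 10 the nearest other Kupffer peak lay between 4858 and 11964 bp away, and their surroundings up to that distance were empty in the Kupffer list. The exceptions were the peaks on chromosome 17, with a Kupffer-only peak of 151 bp at a gap of 565 bp, and at chr7:133015060-133015656, with one of 254 bp at 310 bp. The median gap to the nearest Kupffer peak was 6296 bp among the 10, against 1165 bp over all members. It was 1542 bp over the 62 members above 500 bp, of which 77.4% had another Kupffer peak within 5 kb, against 81.1% of all members, so that the wide spacing of the 10 did not extend to that class. The nearest Kupffer peak was Kupffer-only for 8 of the 10. Their nearest endothelial peaks, at gaps of 5400 to 55208 bp, were all shared with Kupffer cells. In 8 of the 10 an endothelial peak lay within 20 kb, and none was found in that range around chr1:109343875-109344493 and chr7:113795171-113795759. The 10 were picked as the extreme of a width ranking, so these values describe them alone.

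**Figure D3:**
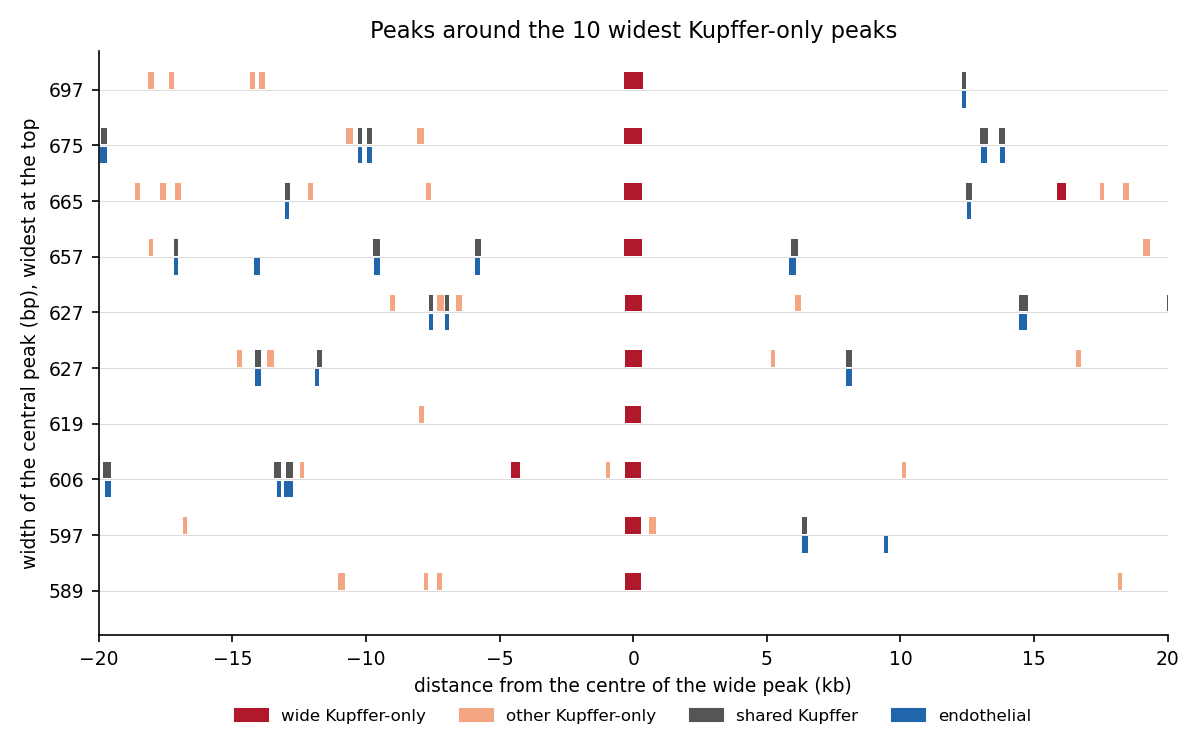
Peaks within 20 kb of the centre (x axis, kb) of the 10 widest Kupffer-only peaks, 1 row each, labelled by width in bp (y axis); Kupffer peaks are drawn above each line (red wide Kupffer-only, orange other Kupffer-only, grey shared) and endothelial peaks below it (blue). In 8 rows the nearest other Kupffer peak is at least 4858 bp from the edge of the central peak.

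Chromosomes held wide peaks at similar rates. Members made up 3.21% of Kupffer-only peaks over the 19 chromosomes (3.09% to 3.33%). The lowest share was 2.70% on chromosome 16 (85 of 3150, 2.16% to 3.33%) and the highest 3.89% on chromosome 17 (136 of 3494, 3.28% to 4.59%). Chromosome 17 was the 1 chromosome whose interval missed the common share; the other 18 intervals held it. At this number of intervals of 95%, about 1 such miss is the nominal rate. Among wide Kupffer peaks, the Kupffer-only part ran from 33.5% on chromosome 8 (28.7% to 38.6%) to 44.9% on chromosome 18 (38.1% to 51.8%). On chromosome 1 it was 43.9% (39.1% to 48.7%). The intervals of chromosomes 1 and 18 lay above the common 37.9%, where about 1 miss is again the nominal rate. Among Kupffer peaks of any width, 57.5% were Kupffer-only on chromosome 8, the lowest of the 19. The share was 60.8% on chromosome 18 and 62.6% on chromosome 1, beside 60.9% over all 19.

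**Figure D4:**
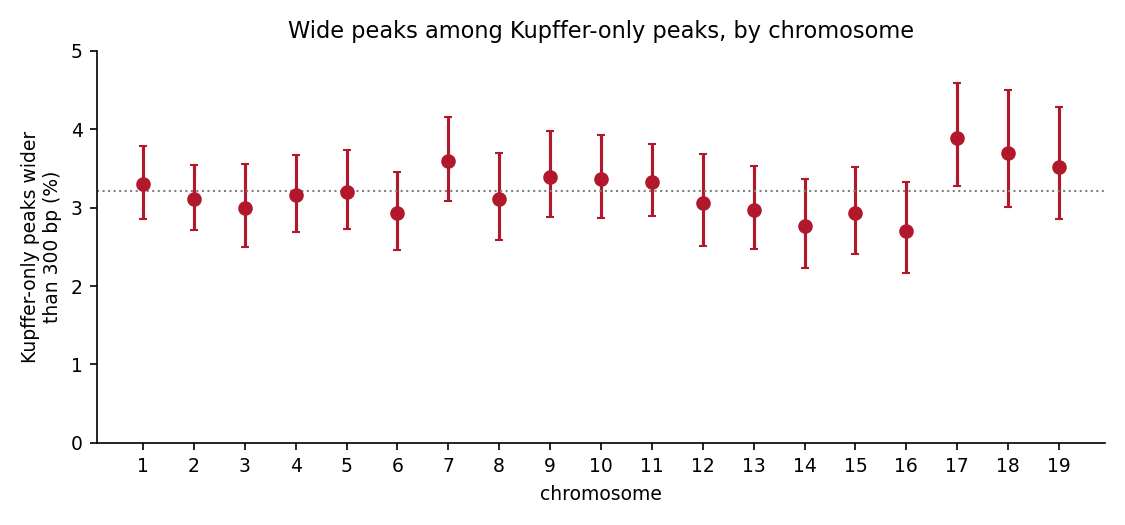
Share of Kupffer-only peaks that are wider than 300 bp (y axis, percent) on each of chromosomes 1 to 19 (x axis), with 95% exact binomial intervals; the dotted line is the common share of 3.21%. Chromosome 17, at 3.89%, has the 1 interval that misses the line.

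In windows of 100 kb, wide peaks were the smallest part of Kupffer-only peaks where these were sparsest. They made up 2.44% in windows with 1 to 4 Kupffer-only peaks (354 of 14497, 2.20% to 2.71%), 3.22% in those with 5 to 9 (3.02% to 3.44%), 3.40% in those with 10 to 19 (3.21% to 3.60%) and 3.93% in the 248 windows with 20 or more (222 of 5647, 3.44% to 4.47%). The interval of the sparsest class lay below the others, while each of the denser classes overlapped the next. At least 1 member was held by 60.9% of those 248 dense windows. In the sparser classes the values were 5.23% at 1 to 4 Kupffer-only peaks, 19.9% at 5 to 9 and 35.2% at 10 to 19. A window with more Kupffer-only peaks has more that can be wide, and that part was not tested. The 7 most crowded Kupffer-only windows, with 32 to 37 such peaks, varied in their number of members. Those on chromosome 9 from 95500001 and chromosome 2 from 166500001 held 4 each, that on chromosome 19 from 55800001 held 2, those on chromosome 2 from 90300001, chromosome 5 from 102400001 and chromosome 9 from 45000001 held 1 each, and that on chromosome 13 from 20200001 held none. Members sharing a window are neighbours on 1 stretch of DNA and not independent observations.

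Members were spread over 2238 windows. A window held a single member in 1910 cases, and 328 windows held 2 or more, which accounted for 717 members or 27.3%. No window held more than 4, and 6 windows held that number. These were on chromosome 2 from 129300001 to 129400000 and from 166500001 to 166600000, chromosome 9 from 95500001 to 95600000, chromosome 10 from 117200001 to 117300000, chromosome 11 from 59300001 to 59400000 and chromosome 17 from 48300001 to 48400000. Their 24 members were 303 to 424 bp wide, 18 of them within 1 kb of another Kupffer peak and 5 within 1 kb of an endothelial peak.

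The 6 windows differed in how exclusive they were to Kupffer cells. The window on chromosome 17 held 13 Kupffer-only peaks and neither endothelial-only nor shared ones. Its members lay at chr17:48329453-48329756, chr17:48330083-48330389, chr17:48335258-48335666 and chr17:48373798-48374104, and the nearest endothelial peak was 29469 to 73134 bp away from them. The window on chromosome 9 held 34 Kupffer-only peaks beside 2 endothelial-only and 1 shared peak, with members at chr9:95541618-95541951, chr9:95581811-95582181, chr9:95589496-95589798 and chr9:95599635-95600058. On chromosome 10 the 4 members were 4 of 15 Kupffer-only peaks, beside 10 shared Kupffer peaks, of which 3 were wide. Its members at chr10:117267971-117268364 and chr10:117297367-117297688 lay 788 and 344 bp from an endothelial peak. On chromosome 11 there were 17 Kupffer-only, 2 endothelial-only and 8 shared peaks, with the 4 members inside 36.0 kb. The window on chromosome 2 from 166500001 held 32 Kupffer-only, 6 endothelial-only and 7 shared peaks, and a pair of members of 395 and 393 bp, chr2:166500245-166500639 and chr2:166500942-166501334, were separated by 302 bp. The other window on chromosome 2 held 22 Kupffer-only, 2 endothelial-only and 4 shared peaks. None of the 6 windows held a wide endothelial-only peak. They held few endothelial-only peaks of any width, from 0 on chromosome 17 to 6 in the chromosome 2 window from 166500001. On the chromosomes of the rule, 2348 of 37387 endothelial-only peaks were wide, so few or none would be wide among so few. The windows were also picked for their number of members. Whether wide peaks of both kinds avoid each other was not tested.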

How the data were processed

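Peak positions are the only values used. The authors deposited 1 list of nucleosome-free-region peaks per cell type with 3 columns (chromosome, start, end) and no score, count or library of origin. Per the submitters' processing notes, Bowtie and HOMER were used and the build is mm9; no version is stated. The cut-off for a peak, any requirement that a peak exceed its surroundings, the selection of short fragments, the treatment of transposase offsets and the merging of libraries are not stated, and each can set peak width, spacing and absence. Because the stated build is mm9, the GRCm38 gene table was not used to annotate peaks. The motifs, gene lists and sequences planned for a matching build were not used either. On 10 of 19 autosomes the last peak ended past the last gene of the GRCm38 table. That can also occur on a matching build, so it does not show which build the peaks are on.

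Width is end minus start. Gaps are edge to edge. Profiles count centres. Overlaps were computed with NumPy 2.4.6 and pandas 2.3.3 in Python 3.11.15; bedtools 2.31.1 gave the same 2627 members. Intervals are exact (Clopper-Pearson, SciPy 1.17.1). The procedures were tested on simulated data. No p-value was computed, since lists without replicates allow no test across samples. The members and measures were chosen with earlier results of these data known. Named were the 10 widest members, 5 on either side of the threshold, 5 farthest from each list, the windows with most members (ties included) and the extreme chromosomes.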

Additional observations from a re-analysis of the deposited data

How the results depend on the processing

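Of 37 alternative values, 19 stayed within the interval of a share or ratio or within 1.5 times a count, and 18 moved further. Another distance, window size or width cut-off changes the quantity itself, so this tally does not measure how robust the results are. With widths over 250 bp there were 9541 members and 45.8% of such Kupffer peaks were Kupffer-only. With widths over 400 bp there were 424 members, 30.9% were Kupffer-only, 64.2% had an endothelial peak within 10 kb, 73.6% a Kupffer-only nearest Kupffer peak, and the ratio at 5 kb was 1.47. With an overlap of at least 50% of either peak needed for sharing, 39.3% were Kupffer-only. With endothelial peaks within 500 bp counted as shared, 32.9% were Kupffer-only, 62.0% had an endothelial peak within 10 kb, 41.2% another Kupffer peak within 1 kb and 73.9% a Kupffer-only nearest Kupffer peak; this setting removes near neighbours by construction. An endothelial peak lay within 5 kb of 47.6% and within 20 kb of 83.4%, and another Kupffer peak within 500 bp of 34.1% and within 5 kb of 81.1%. Windows with 2 or more members numbered 199 at 50 kb and 684 at 500 kb. Adding the X chromosome moved none of the 6 values computed with it outside its range. The ratio at 5 kb was added after the data were seen. No paired analysis was possible because neither list separates its libraries, and for the same reason no replicate was left out and no normalization or count filter was varied. Alternatives for motifs and gene starts were not run. Depth is unknown and limits every statement that a peak is missing from a list.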

Other observations

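Outside the chromosomes of the rule, the X chromosome held 57 Kupffer peaks wider than 300 bp without an endothelial counterpart. They were 3.05% of its 1868 Kupffer-only peaks (95% exact binomial interval 2.32% to 3.94%) and 36.3% of its 157 wide Kupffer peaks (28.8% to 44.3%), both with intervals that hold the autosomal shares of 3.21% and 37.9%. The nearest endothelial peak on X lay a median of 8088 bp from these 57, with a range of 109 to 529674 bp. A further 3 such peaks were among the 142 Kupffer peaks on the Y chromosome, the mitochondrial genome and unplaced sequences.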
